A study of Rattus norvegicus with 6 samples.

Results

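Fatty acid oxidation is the stepwise breakdown of fatty acids to acetyl-CoA, the unit from which ketone bodies such as β-hydroxybutyrate (BHB) are made in liver. The 35 genes described here encode its mitochondrial and peroxisomal enzymes, the 3 PPAR receptors and several of their targets. They were taken by symbol from the 22608 genes of the deposited table, of which 34 matched directly. Acaa1a is listed there under its older symbol Acaa1, which a RefSeq gene table of the GRCr8 assembly gives as a synonym.

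RNA came from rat primary astrocytes, cultured cells from brain, in 3 control libraries and 3 libraries of cells treated with BHB. Poly(A) RNA was sequenced, and the column names give the dose as 2 mM. The sources used here do not give the strain, age or treatment time, nor whether replicate libraries stem from different cultures or animals. The p-values therefore reflect only the spread among these libraries, which may be technical. Values are FPKM, fragment numbers divided by transcript length and by library size, so levels can be compared between genes on a per-length scale.

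In mitochondria, long-chain fatty acids enter through the carnitine shuttle, whose first enzyme, CPT1, is the main point of control. Each round of oxidation then uses a dehydrogenase, a hydratase, a second dehydrogenase and a thiolase, and electrons pass through the electron transfer flavoprotein. Peroxisomes shorten very long and branched chains. PPARs are nuclear receptors that bind fatty acids and switch on many of these genes. In brain, fatty acid oxidation is largely attributed to astrocytes.

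Of the 35 genes, 31 reached the minimum of 1 FPKM in at least 3 libraries and were tested. None passed at an adjusted p under 0.05 in limma, where 0.0566% of all 12373 tested genes passed (0.0485% higher and 0.00808% lower with BHB). The lowest adjusted p among the 31 was 0.881. At an unadjusted p under 0.05 there were 4 of 31, or 12.9%, against 5.59% of all tested genes. These were Acads, Eci1 and Angptl4, each with a higher mean with BHB, and Acot2, with a lower one. The count was 2 without control 1 and 1 without BHB 2. The groups did not overlap in these 4 genes and in Echs1, so in 5 of 31, or 16.1%, against 10.9% of all tested genes.

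The log2 fold change is BHB over control, on the log2(FPKM + 1) scale, which understates changes of low genes. It was above 0 in 18 of 31, or 58.1%, against 51.5% of all tested genes. Its median was 0.011 over the 31 and 0.0029 over all tested genes. The majority and the sign of the median were lost under 1 other scaling and without either of 2 libraries. With columns scaled to the same sum, 15 of 31 lay above 0 with a median of -0.0054, against 44.1% and -0.012 over all tested genes. Without control 1, 14 of 31 lay above 0, with a median of -0.0077, and without BHB 2, 15 of 31, with a median of -0.00027. It ran from -0.28 for Acot2 to 0.30 for Angptl4. The 95% interval lay inside a 1.5-fold change in either direction for 31 of 31, and inside a 1.25-fold change for 28 of 31, the others being Cpt1b, Angptl4 and Acot2. With a pseudocount of 0.1 the interval of Cpt1b, a low gene, reached beyond 1.5-fold (from -0.23 to 0.76). Without control 2, control 3, BHB 1 or BHB 3 that of Angptl4 did. Mean FPKM differed by under 5% in 22 of 31 and by under 10% in 27 of 31.

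**Figure D1:**
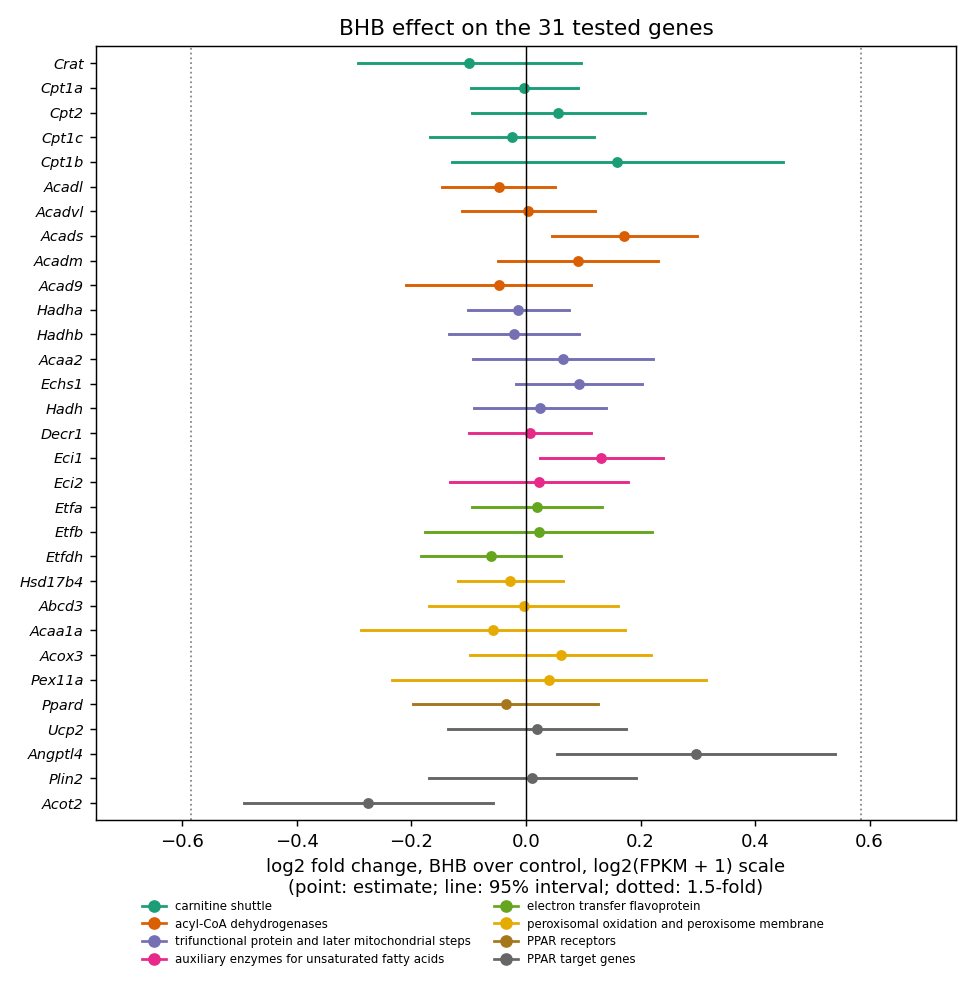
Log2 fold change (x axis, BHB over control, log2(FPKM + 1) scale) of the 31 tested genes (y axis), coloured by role, with points for estimates and lines for 95% intervals from limma. The intervals of 31 of 31 lie inside the dotted lines at 1.5-fold, and those of Acads, Eci1, Angptl4 and Acot2 do not reach 0.

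Astrocyte markers were found in every library, beside markers of other cells. Each library had 12288 to 12312 genes at 1 FPKM or more, and the 35 genes held 0.325% to 0.336% of the summed FPKM. All 10 astrocyte markers were tested, from Slc1a2, at 5.49 to 6.40 FPKM over both groups, up to Fabp7, at 2319 FPKM in controls. They summed to 4647 to 4902 FPKM in controls and 5051 to 5073 FPKM with BHB. The only one called was the glutamate transporter gene Slc1a3, at 205, 197 and 206 FPKM in controls and 468, 445 and 452 FPKM with BHB (log2 fold change 1.16, limma adjusted p = 1.64e-05), and the other 9 summed to 4440 to 4705 FPKM in controls and 4583 to 4621 FPKM with BHB. Fibroblast and mural markers summed to 4485 to 4860 FPKM in controls and 4639 to 5023 FPKM with BHB. Most of this sum came from Tagln, at 3030 FPKM in controls, and Acta2, at 1285 FPKM, followed by Col1a2 at 271 FPKM. Rgs5 and Cspg4 stood at 1.26 and 1.93 FPKM in controls, and 2 of 10 (Dcn and Lum) were under 1 FPKM throughout. Microglia and macrophage markers, led by C1qb, summed to 52.9 to 58.8 FPKM in controls and 54.0 to 56.9 FPKM with BHB, with 1 of 12 (P2ry12) under 1 FPKM throughout. The groups did not overlap in 3 of 11 tested, or 27.3%, against 10.9% of all tested genes. Cx3cr1 was lower and Aif1 and Tmem119 were higher with BHB, and none was called. Neuron markers summed to 85.3 to 89.4 FPKM over both groups, led by Stmn2 at 54.8 FPKM in controls. Of these, 4 of 10 (Rbfox3, Slc17a7, Gad2 and Nefl) were under 1 FPKM throughout. Oligodendrocyte lineage markers summed to 90.5 to 97.1 FPKM over both groups, led by Cnp at 47.0 FPKM in controls. Here 3 of 10 (Mag, Sox10 and Mobp) were under 1 FPKM throughout. Mog stood at 5.47 FPKM in control 1 and at 0.220 to 0.529 FPKM in all other libraries, and was not tested. Endothelial markers, led by Ocln, summed to at most 8.80 FPKM, with 7 of 10 under 1 FPKM throughout and Cldn5 listed at 0. All 6 adipocyte markers were under 1 FPKM in every library, led by Fabp4 at 0.529 FPKM in controls, and Adipoq, Plin1 and Retn were listed at 0. The share of any of these cells in the values below was not tested, and in bulk RNA fewer cells of a type and less RNA per cell cannot be told apart.

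PPARs bind, as a pair with the retinoid receptor RXR, to 2 half-sites AGGTCA in a row with 1 base between them. RefSeq promoter windows of the GRCr8 assembly (250 bases before to 50 after the start) were found for 29 of the 35 genes, as 31 windows. Acaa2, Acadl, Cpt1b, Cpt1c, Decr1 and Ppard had none. The 13-letter motif AGGTCANAGGTCA, searched on both strands, was in 0 of the 31 windows and in 0.0538% of 33469 windows of all genes. With so rare a motif, 0 of 31 says little about these genes. With 1 mismatch allowed it was in the Acadvl window, 1 of 31, against 0.439% of all windows. The half-site, which is part of that motif, was in 6 of 31 windows (Acadvl, Echs1, Eci1, Eci2, Hadhb and Hsd17b4), or 19.4%, against 16.2% of all windows. A match is a description of letters, and elements outside these windows were not searched.

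Printed here are the 250 bases before the start of 3 genes, 5′ to 3′ on the gene's strand. Acadvl holds the closest match, Eci1 is the only gene with both a half-site and an unadjusted p under 0.05, and Angptl4 has the highest log2 fold change of the 31. Capitals mark a half-site on either strand (TGACCT on the other strand) or, at the end of the Acadvl window, the motif with 1 mismatch. The Acadvl window is chr10:55236706-55236955 on the minus strand, that of Eci1 is chr10:13961000-13961249 on the plus strand, and that of Angptl4 is chr7:15258682-15258931 on the minus strand.
Acadvl: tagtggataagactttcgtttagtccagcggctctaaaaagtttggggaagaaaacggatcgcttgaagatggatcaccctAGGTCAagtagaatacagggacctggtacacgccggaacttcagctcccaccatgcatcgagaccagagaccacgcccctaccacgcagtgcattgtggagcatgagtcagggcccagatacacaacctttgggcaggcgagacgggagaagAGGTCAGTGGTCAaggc
Eci1: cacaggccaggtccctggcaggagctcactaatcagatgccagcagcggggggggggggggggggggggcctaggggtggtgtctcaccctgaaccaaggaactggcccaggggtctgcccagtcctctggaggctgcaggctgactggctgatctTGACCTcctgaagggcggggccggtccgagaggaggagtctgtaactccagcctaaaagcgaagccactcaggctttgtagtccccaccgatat
Angptl4: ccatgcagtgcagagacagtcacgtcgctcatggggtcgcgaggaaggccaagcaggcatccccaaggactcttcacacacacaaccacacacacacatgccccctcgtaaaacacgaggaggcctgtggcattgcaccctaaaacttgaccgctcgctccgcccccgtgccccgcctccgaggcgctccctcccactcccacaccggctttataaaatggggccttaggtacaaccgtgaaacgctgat

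Counted from the start site, with -1 as the base just before it, the Acadvl match spanned -17 to -5 and its other half-site -169 to -164. The Eci1 half-site spanned -94 to -89. Angptl4 had no match in its window.

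Of the receptors, one was expressed well above the others. Ppard, the broadly expressed PPARδ, stood at 5.91, 6.12 and 6.19 FPKM in controls and 5.48, 5.88 and 6.37 FPKM with BHB. The BHB values lay on both sides of the controls, and the log2 fold change was -0.04 (95% interval from -0.20 to 0.13, limma adjusted p = 0.957). Ppara, the receptor best known for driving oxidation in liver, stood at 0.652, 0.947 and 0.557 FPKM in controls and 0.478, 0.705 and 0.727 FPKM with BHB. Pparg, the receptor best known from fat cells, stood at 0.913, 0.443 and 0.747 FPKM in controls and 0.297, 0.852 and 0.775 FPKM with BHB. Both were under 1 FPKM in all 6 libraries and were not tested, and their groups overlapped. Within a library Ppard was 6.46 to 11.5 times Ppara and 6.47 to 18.4 times Pparg, so the order of Ppard over the other two was the same in all 6 libraries. Ppara and Pparg could not be ordered, with a ratio of 0.714 to 2.14.

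**Figure D2:**
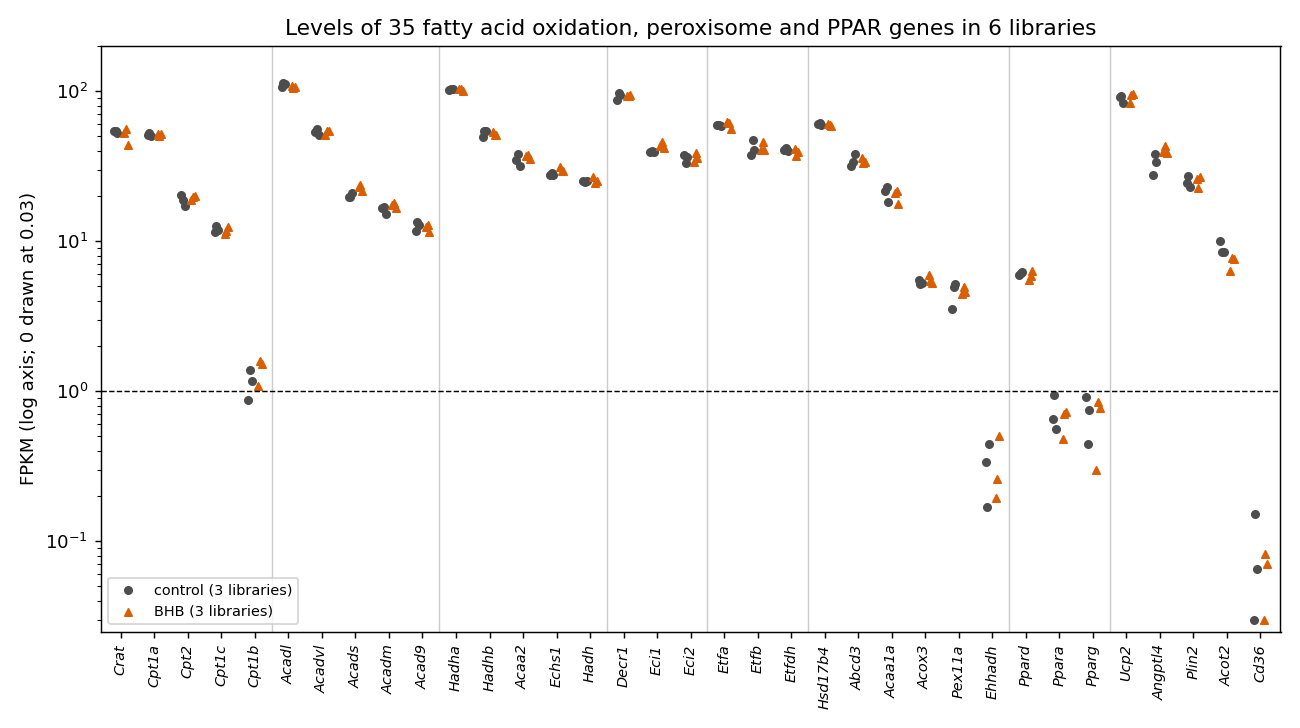
FPKM (y axis, log scale, values of 0 drawn at 0.03) of all 35 genes (x axis, grouped by role and ordered by mean level) in 3 control libraries (circles) and 3 BHB libraries (triangles), with a dashed line at 1 FPKM. Ehhadh, Ppara, Pparg and Cd36 lie under 1 FPKM in all libraries, and circles and triangles lie close together in most other genes.

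Among the PPAR targets, Angptl4, a secreted inhibitor of lipoprotein lipase, had the highest log2 fold change of the 31 genes. It stood at 27.4, 38.0 and 33.5 FPKM in controls and 39.3, 43.2 and 38.9 FPKM with BHB. All BHB libraries lay above all controls, but the highest control and the lowest BHB library were close, and control 1 stood below the rest. Means were 33.0 ± 5.30 and 40.5 ± 2.37 FPKM (SD, n = 3 each), a ratio of 1.23. The log2 fold change of 0.30 (95% interval from 0.05 to 0.54) was not called (limma adjusted p = 0.881). Leaving out single libraries gave 0.17 (without control 1) to 0.40.

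Acot2, a mitochondrial thioesterase that releases fatty acids from CoA, had the lowest. It stood at 9.96, 8.47 and 8.44 FPKM in controls and 6.28, 7.78 and 7.65 FPKM with BHB, so all BHB libraries lay below all controls. Control 1 was the highest and BHB 1 the lowest library. Means were 8.96 ± 0.865 and 7.24 ± 0.826 FPKM (SD, n = 3 each), a ratio of 0.808. The log2 fold change of -0.28 (95% interval from -0.49 to -0.06) was not called (limma adjusted p = 0.881). Acot2 belongs to a family of close copies, and the sources used here do not say how reads shared between them were counted.

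The other targets were nearer to 0. Plin2, a coat protein of lipid droplets, stood at 24.3, 27.2 and 23.1 FPKM in controls and 25.8, 22.7 and 26.7 FPKM with BHB. Its log2 fold change was 0.01 (95% interval from -0.17 to 0.19, limma adjusted p = 0.989). Ucp2, an uncoupling protein family carrier of the inner mitochondrial membrane, was the most abundant of the 5 genes grouped here as PPAR targets. It stood at 91.6, 93.2 and 83.1 FPKM in controls and 82.7, 93.7 and 95.4 FPKM with BHB, a log2 fold change of 0.02 (95% interval from -0.14 to 0.17, limma adjusted p = 0.978). The groups overlapped in both genes, and the direction of each turned when single libraries were left out. Cd36, a fatty acid uptake receptor of macrophages, endothelium and fat cells, was listed at 0, 0.152 and 0.0657 FPKM in controls and 0, 0.0827 and 0.0709 FPKM with BHB, and was not tested.

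In the carnitine shuttle, 5 of 5 genes were tested and none had an unadjusted p under 0.05. Cpt1a, the CPT1 form of liver and most tissues, stood at 51.0, 52.5 and 50.6 FPKM in controls and 51.5, 50.4 and 51.8 FPKM with BHB. The 6 values lay within a narrow range, and the log2 fold change was -0.0031 (95% interval from -0.10 to 0.09, limma adjusted p = 0.996). Cpt1c, the brain form with little known activity in fatty acid import, stood at 11.6, 12.5 and 11.8 FPKM in controls and 11.1, 11.7 and 12.4 FPKM with BHB. Its groups overlapped, with a log2 fold change of -0.02 (95% interval from -0.17 to 0.12, limma adjusted p = 0.971). Cpt1b, the muscle form, was low, at 0.869, 1.39 and 1.17 FPKM in controls and 1.08, 1.58 and 1.53 FPKM with BHB. Its groups overlapped too, and its interval was wide (log2 fold change 0.16, 95% interval from -0.13 to 0.45, limma adjusted p = 0.901). The log2 fold change was 0.27 with a pseudocount of 0.1, 0.064 without control 1 and 0.10 without BHB 2, and 0.24 without control 2 and 0.26 without BHB 1. Within a library Cpt1a was 4.17 to 4.63 times Cpt1c and 31.9 to 58.7 times Cpt1b, so this order held in all 6.

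Crat, which exchanges carnitine and CoA on acetyl groups and other short chains, was the most abundant gene of the shuttle by mean level, close to Cpt1a. It stood at 54.4, 54.5 and 52.8 FPKM in controls and 52.3, 55.9 and 43.4 FPKM with BHB. BHB 3 stood below the other 5 libraries, and the log2 fold change of -0.10 (95% interval from -0.29 to 0.10, limma adjusted p = 0.910) was 0.0048 without it and -0.17 without BHB 2. Cpt2, which hands the fatty acid back to CoA inside the mitochondrion, ran from 17.2 to 20.2 FPKM in controls and from 18.7 to 20.0 FPKM with BHB.

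The acyl-CoA dehydrogenases, which open each round and differ in the chain length they prefer, included the gene with the smallest p of the 31. Acads, for short chains, stood at 19.8, 19.7 and 21.0 FPKM in controls and 23.0, 23.7 and 21.7 FPKM with BHB. All BHB libraries lay above all controls. Means were 20.2 ± 0.755 and 22.8 ± 1.03 FPKM (SD, n = 3 each), and the log2 fold change of 0.17 (95% interval from 0.05 to 0.30) was not called (limma adjusted p = 0.881).

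Acadm, for medium chains, stood at 16.6, 17.0 and 15.1 FPKM in controls and 17.3, 18.0 and 16.7 FPKM with BHB. Its groups overlapped through BHB 3, which lay below control 2, and the log2 fold change was 0.09 (95% interval from -0.05 to 0.23, limma adjusted p = 0.895) and 0.044 without control 3. Acadl, for long chains, was the most abundant of the 35 genes in mean level. It stood at 106.0, 113.2 and 112.1 FPKM in controls and 108.9, 104.7 and 106.7 FPKM with BHB, with overlapping groups and a log2 fold change of -0.05 (95% interval from -0.15 to 0.05, limma adjusted p = 0.910). Within a library it was 1.92 to 2.20 times Acadvl, for very long chains, and 5.80 to 7.40 times Acadm. Acadvl, whose window held the motif with 1 mismatch, ran from 50.9 to 55.7 FPKM in controls and from 51.2 to 54.6 FPKM with BHB, a log2 fold change of 0.0038 (95% interval from -0.11 to 0.12, limma adjusted p = 0.996). Acad9, which also helps to assemble respiratory complex I, ran from 11.7 to 13.5 FPKM in controls and from 11.5 to 12.9 FPKM with BHB.

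**Figure D3:**
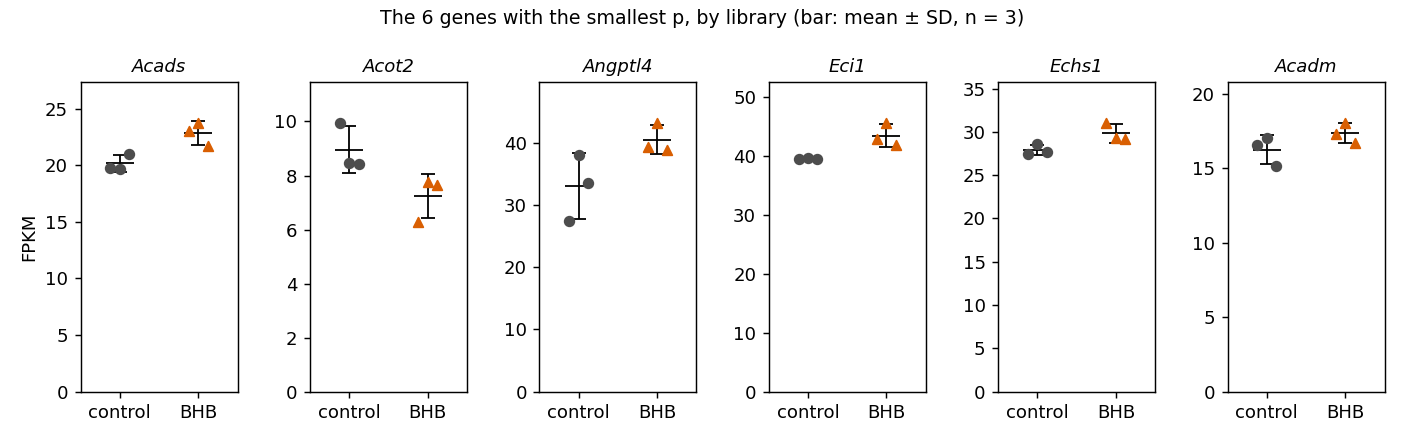
FPKM (y axis, from 0) by library in the 6 genes with the smallest p, with circles for controls, triangles for BHB and bars for the mean ± SD (n = 3 each). The groups do not overlap in Acads, Acot2, Angptl4, Eci1 and Echs1 and overlap in Acadm, and in none of the 6 did the difference pass.

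Of the genes of the later mitochondrial steps, 5 of 5 were tested and none had an unadjusted p under 0.05. Hadha and Hadhb encode the 2 subunits of the trifunctional protein, which carries out the remaining steps on long chains. Hadha stood at 101.0, 103.8 and 103.2 FPKM in controls and 103.0, 102.5 and 99.7 FPKM with BHB, with overlapping groups and a log2 fold change of -0.01 (95% interval from -0.10 to 0.07, limma adjusted p = 0.972). Hadhb ran from 49.7 to 54.3 FPKM in controls and from 51.1 to 53.2 FPKM with BHB, and Hadha was 1.90 to 2.03 times Hadhb in every library.

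Echs1, the short-chain hydratase, stood at 27.5, 28.6 and 27.7 FPKM in controls and 31.1, 29.2 and 29.2 FPKM with BHB. The BHB libraries lay above the controls by a small margin, and the log2 fold change of 0.09 (95% interval from -0.02 to 0.20) was not called (limma adjusted p = 0.890). The dehydrogenase gene Hadh ran from 24.8 to 25.3 FPKM in controls and from 24.5 to 26.8 FPKM with BHB. The thiolase gene Acaa2 ran from 31.8 to 38.3 FPKM and from 35.2 to 37.6 FPKM.

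Unsaturated fatty acids need isomerases and a reductase besides. Eci1, a mitochondrial isomerase that moves double bonds, stood at 39.5, 39.8 and 39.6 FPKM in controls and 42.9, 45.7 and 42.0 FPKM with BHB. The 3 controls were nearly equal, and all BHB libraries lay above them. Means were 39.6 ± 0.135 and 43.5 ± 1.95 FPKM (SD, n = 3 each), and the log2 fold change of 0.13 (95% interval from 0.02 to 0.24) was not called (limma adjusted p = 0.881). Eci2, a second isomerase found in mitochondria and peroxisomes, ran from 33.0 to 37.3 FPKM in controls and from 33.7 to 38.9 FPKM with BHB. Decr1, the mitochondrial dienoyl-CoA reductase, was the most abundant of these, at 87.8, 96.7 and 93.7 FPKM in controls and 92.7, 92.6 and 94.1 FPKM with BHB. The BHB values of Decr1 lay inside the range of the controls, and its log2 fold change was 0.0071 (95% interval from -0.10 to 0.11, limma adjusted p = 0.989).

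The electron transfer flavoprotein and its dehydrogenase, which pass electrons to ubiquinone, had overlapping groups in 3 of 3 genes. Etfa, the most abundant, stood at 59.3, 59.8 and 58.3 FPKM in controls and 62.1, 61.5 and 56.3 FPKM with BHB, with the highest and the lowest value both in BHB libraries. Its log2 fold change was 0.02 (95% interval from -0.09 to 0.13, limma adjusted p = 0.972). Etfb ran from 37.7 to 47.0 FPKM in controls and from 40.3 to 45.8 FPKM with BHB, and Etfdh from 40.1 to 42.0 FPKM and from 36.8 to 41.3 FPKM.

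Of the 6 peroxisomal genes, 5 were tested, 2 above and 3 below 0, none at an unadjusted p under 0.05. Hsd17b4, the bifunctional enzyme of the branched and very long chain route, was the most abundant. It stood at 60.1, 61.7 and 59.8 FPKM in controls and 60.2, 59.5 and 58.5 FPKM with BHB, with overlapping groups and a log2 fold change of -0.03 (95% interval from -0.12 to 0.06, limma adjusted p = 0.938). Ehhadh, the bifunctional enzyme of the other, PPARα-responsive route, was low in all libraries, at 0.339, 0.170 and 0.442 FPKM in controls and 0.194, 0.260 and 0.502 FPKM with BHB, and was not tested. Abcd3, a transporter of the peroxisome membrane, ran from 31.6 to 38.2 FPKM in controls and from 33.3 to 36.0 FPKM with BHB. The thiolase gene Acaa1a ran from 18.2 to 23.1 FPKM and from 17.7 to 21.5 FPKM, with the lowest values in control 3 and BHB 3. The oxidase gene Acox3 ran from 5.15 to 5.47 FPKM and from 5.30 to 5.96 FPKM. Pex11a, which promotes peroxisome division and is a PPARα target, ran from 3.51 FPKM in control 1 to 5.17 FPKM in control 3 and from 4.44 to 4.94 FPKM with BHB.

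Single libraries set part of the spread. Control 2 had the highest value of 13 of the 31 tested genes and control 1 the lowest of 9. The same counts over all tested genes were not made. The median deviation from the gene's mean over 6 libraries was 0.054 on the log2 scale in control 2, where the median over all tested genes was 0.0056. The other 5 libraries had medians of -0.020 to 0.032 over the 31 genes. Within a group, the highest and lowest library differed by a median of 1.12-fold in the wider group of each gene, and over the 34 of the 35 genes with no value of 0 by up to 2.87-fold, in Pparg. What the high values of control 2 rest on was not tested.

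**Figure D4:**
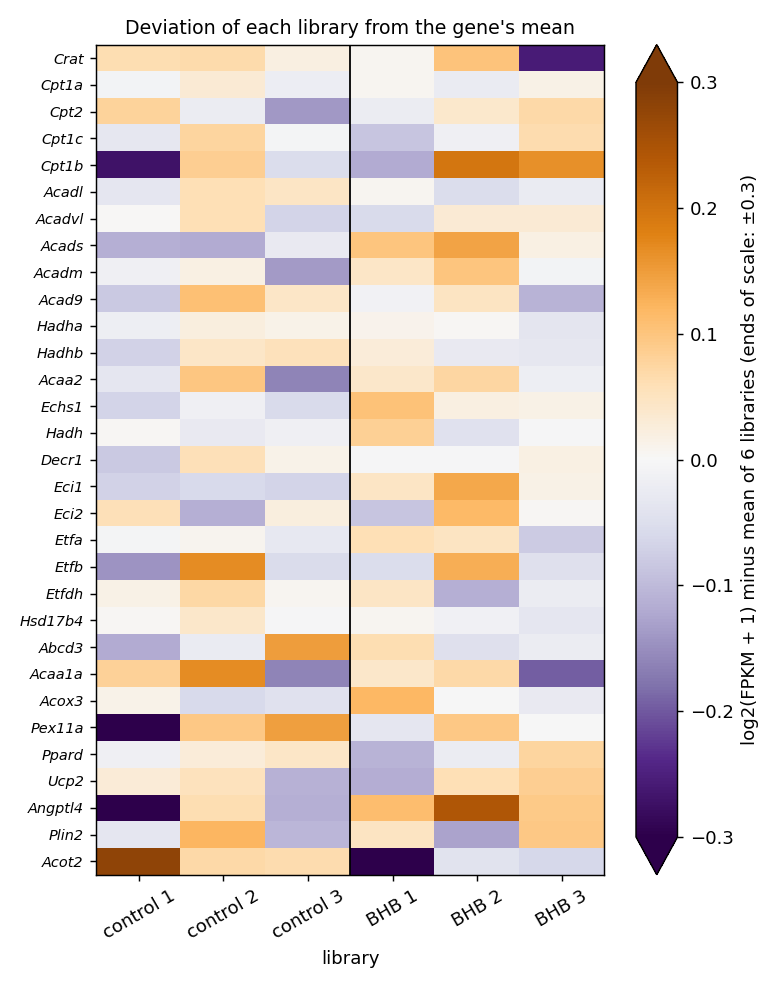
Deviation of each library (x axis) from the gene's mean over 6 libraries, in log2(FPKM + 1) (colour, orange above and purple below the mean), for the 31 tested genes (y axis). Control 2 is above the mean in 23 of 31 rows, and Acads, Eci1 and Echs1 have purple controls and orange BHB libraries throughout.

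A wider list of 134 genes of the same pathways, none of them among the 35, was read the same way. Of 112 tested, 0 passed in limma, 4 had an unadjusted p under 0.05 (3 higher and 1 lower), or 3.57% against 5.59% of all tested genes, and 65 had a log2 fold change above 0, or 58.0% against 51.5% (median 0.012). The groups did not overlap in 10 of the 112, or 8.93% against 10.9%. By role, 12 of 19 other mitochondrial genes, 13 of 15 acyl-CoA synthetase and uptake genes and 9 of 26 other peroxisomal genes lay above 0. So did 7 of 15 peroxins, 10 of 15 PPAR partners and coregulators and 14 of 22 other PPAR targets and lipid droplet genes. Such counts depend on scaling. With columns scaled to the same sum, the share over all tested genes was 44.1%, and the counts of the wider list were not repeated there.

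The smallest p belonged to Plin4, a lipid droplet coat protein. It stood at 5.30, 4.51 and 4.71 FPKM in controls and 2.79, 3.77 and 3.08 FPKM with BHB, so all BHB libraries lay below all controls. Means were 4.84 ± 0.411 and 3.21 ± 0.502 FPKM (SD, n = 3 each), a ratio of 0.664. The log2 fold change of -0.48 (95% interval from -0.71 to -0.24) was not called (limma adjusted p = 0.733, and 0.332 to 0.974 over the alternatives). Lipe, the hormone-sensitive lipase of lipid droplets, stood at 1.61 ± 0.229 and 1.27 ± 0.195 FPKM, and the droplet protein gene Cidea at 14.8 ± 1.83 and 16.7 ± 0.640 FPKM (SD, n = 3 each; limma adjusted p = 0.890 for both).

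Slc25a20, which carries acylcarnitines across the inner membrane between the CPT1 and CPT2 steps, stood at 39.4, 37.1 and 39.2 FPKM in controls and 42.0, 42.1 and 42.0 FPKM with BHB. The 3 BHB values were nearly equal and above all controls. The log2 fold change of 0.12 (95% interval from 0.02 to 0.22) was not called (limma adjusted p = 0.881). Acsl6, a brain acyl-CoA synthetase, stood at 8.75, 9.24 and 8.51 FPKM in controls and 10.7, 11.0 and 9.90 FPKM with BHB, also without overlap (log2 fold change 0.23, 95% interval from 0.08 to 0.38, limma adjusted p = 0.881). Slc27a4, a fatty acid transport protein, stood at 13.2 ± 0.863 and 14.8 ± 0.934 FPKM (SD, n = 3 each; limma adjusted p = 0.881).

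Other named genes of this list had an unadjusted p over 0.05 where tested. Pdk4, the kinase that slows pyruvate oxidation, stood at 7.91 ± 0.813 and 7.43 ± 1.48 FPKM (SD, n = 3 each; -0.09 on the log2 scale, limma adjusted p = 0.937). Catalase (Cat), a marker enzyme of peroxisomes, stood at 75.4 ± 1.47 and 71.4 ± 2.21 FPKM (SD, n = 3 each; -0.08, limma adjusted p = 0.890), with all BHB libraries below all controls. Of the PPAR partners, Rxra stood at 8.32 ± 0.684 and 9.07 ± 0.619 FPKM (SD, n = 3 each; 0.11, limma adjusted p = 0.895). Ppargc1a, the coactivator PGC-1α, reached 1 FPKM in BHB 2 and BHB 3 only and was not tested, at 0.850 ± 0.115 and 1.03 ± 0.119 FPKM (SD, n = 3 each).

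**Figure D5:**
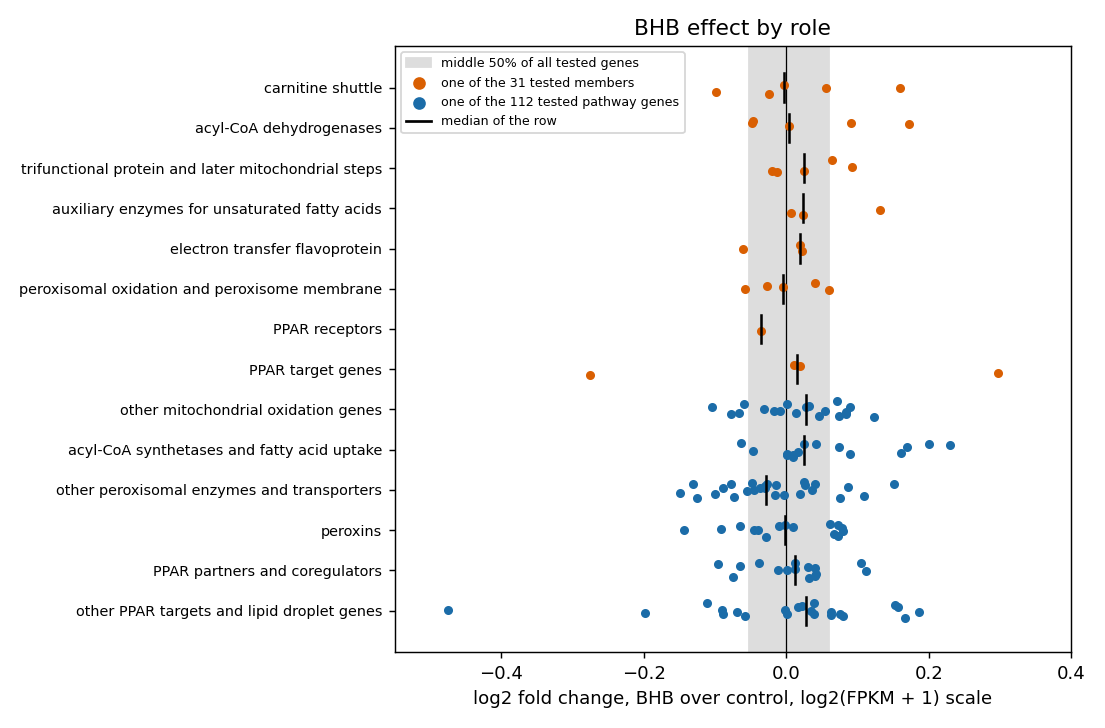
Log2 fold change (x axis, BHB over control, log2(FPKM + 1) scale) of the 31 tested genes (orange) and 112 tested genes of the wider list (blue) by role (y axis), with a black tick at each row's median and a grey band for the middle 50% of all tested genes. Row medians lie inside the band, and Plin4, Acot2 and Angptl4 are the points farthest from 0.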

How the data were processed

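The values are FPKM as the authors deposited them, 1 column per library. Per the submitters' processing notes, the tools included HISAT2, StringTie and bcl2fastq 2.0 with the build rn6, without roles or settings, and the labels' protocols name oligo-dT capture and a TruSeq library kit. The sources used here do not give the annotation, strand setting or handling of shared reads. Of the 31 tested genes, 12 have values with more than 6 decimals, as have 57.4% of all tested genes. Read depth is unknown. Among values under 0.1 FPKM, the most frequent ratio to control 1 was 0.85 in control 3 and 0.96 to 1.01 in the other libraries. Only ratios above 0.7 and below its inverse were counted.

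Values were transformed as log2(FPKM + 1) and not rescaled. Genes reaching 1 FPKM in 3 or more of the 6 libraries were fitted with limma 3.58.1 in R 4.3.3 (eBayes with an intensity trend), on the whole table. Tests were two-sided, with Benjamini-Hochberg adjustment over all 12373 genes and a threshold of 0.05. The fit was checked on normal noise around the real means. In it, 50 genes were changed at each log2 size (0.25, 0.5, 1 and 1.5). There, 20.2% of effects of 0.25 and 84.8% of effects of 0.5 were recovered. An adjusted threshold is easier to pass when more genes change. Only 7 genes were called in the data, so recovery may be lower there.

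The genes and lists were chosen with earlier results of these data known. Values by library are given for genes with an unadjusted p under 0.05, the 6 smallest p, the receptors, the CPT1 forms, the PPAR targets, the most abundant gene of each role and untested genes. Of the wider list, 1 symbol (Acad12) was not found, and the 6 smallest p and some preset genes are named. A few selected genes of the wider list are left out.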

Additional observations from a re-analysis of the deposited data

How the results depend on the processing

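Over 14 alternatives per count (pseudocount 0.1, no filter or a mean of at least 5 FPKM, equal sums, quantile normalization, no intensity trend, array weights, the replicate block and leaving out each library), 0 of the 35 genes and 0 of the wider list passed in limma each time. Over all genes 7 were called, 4 without the intensity trend and 2 with the replicate block, and the cause was not tested. Deviations of same-numbered libraries had correlations of -0.0899, 0.164 and -0.151, and those of differently numbered libraries ran from -0.122 to 0.203. The highest were control 3 with BHB 1 (0.203) and control 1 with BHB 3 (0.186). The numbers were therefore not taken as pairs, and pairing in another order was not tested. In the block fit 4 of the 35 genes had an unadjusted p under 0.05, as without it. Leaving out a library gave 5 to 10 genes called over all genes. It gave 1 to 4 genes of the 35 at an unadjusted p under 0.05 (2 without control 1, 1 without BHB 2) and 6 to 10 whose groups do not overlap, where fewer libraries separate more often (17.4% to 26.2% of all tested genes). Of 556 values of named genes, 515 kept their direction and none was called. The direction turned with equal sums for Acadvl (-0.0129), Decr1 (-0.00972) and Plin2 (-0.00538), with quantile normalization for Acadvl (-4.5e-05) and Decr1 (-0.0066), and with array weights for Abcd3 (0.00239) and Plin2 (-0.00108). Leaving out single libraries turned the direction of others, with ranges of log2 fold change of -0.064 to 0.069 for Abcd3, -0.153 to 0.0253 for Acaa1a, -0.0289 to 0.0349 for Acadvl, -0.0137 to 0.0121 for Cpt1a, -0.0627 to 0.0118 for Cpt1c, -0.174 to 0.00478 for Crat, -0.0315 to 0.0379 for Decr1, -0.0288 to 0.0715 for Eci2, -0.00644 to 0.0626 for Etfa, -0.0448 to 0.111 for Etfb, -0.0111 to 0.0521 for Hadh, -0.0247 to 0.00141 for Hadha, -0.0603 to 0.00209 for Hadhb, -0.215 to 0.0414 for Pdk4, -0.101 to 0.124 for Pex11a, -0.0382 to 0.0774 for Plin2, -0.0827 to 0.00997 for Ppard and -0.0313 to 0.0829 for Ucp2. The 95% interval of a tested gene of the 35 reached a median of 0.15 on the log2 scale to either side, but the adjusted threshold over all genes asks for more, and effects of 0.25 were recovered in 20.2% of cases in the check of the fit, so most changes of that size would be missed.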
